A study of Mus musculus with 6 samples.

Results

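Semaphorins, plexins and neuropilins are the guidance ligands and receptors by which cells attract or repel one another. The genes were taken by symbol from the deposited count table, as every Sema gene of classes 3 to 7, every plexin of families A to D and both neuropilins. This gave 31 of the 46983 genes listed, namely 20 semaphorins, 9 plexins and 2 neuropilins. All 31 passed the filter on low counts, and the lowest count of any of them in any heart was 20. The rule reads names alone.

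The hearts came from E13.5 mouse embryos of the strain C57BL/6 x DBA/2, with 1 whole heart per library. The 3 mutant hearts (replicates 1, 5 and 10) carried 1 copy of the Tnnt2 Cre transgene and floxed Wt1 on both alleles. The 3 control hearts (replicates 2, 3 and 5) are labelled wild type, and the study's methods give them as Cre-negative embryos that are also floxed for Wt1 on both alleles, so all 6 hearts shared the floxed alleles. The Tnnt2 promoter drives Cre in the cardiomyocyte lineage, and the study also saw its activity in a part of the epicardium. The comparison asks which transcripts differ in the heart when Wt1, a zinc finger transcription factor, is removed from that lineage. Only the mutant hearts carried Cre, so the presence of Cre and the loss of Wt1 cannot be told apart. No litter, sex or sequencing batch is given for the embryos.

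A semaphorin binds a plexin through the sema domain that both carry, and the plexin then acts inside the cell on its cytoskeleton and adhesion. Class 3 semaphorins are secreted, and most of them need a neuropilin as the ligand-binding partner of an A-type plexin. Sema3e differs in that it binds Plxnd1 directly. Semaphorins of classes 4, 5 and 6 are held in the membrane and Sema7a by a lipid anchor. In the developing heart the system is known for the septation of the outflow tract (Sema3c with neuropilins and Plxnd1), for vessel patterning (Sema3e, Sema3g and Plxnd1), for innervation (Sema3a) and for the growth of the ventricular wall (Sema6d with Plxna1). Neuropilins also bind VEGF.

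Total counts lay between 44244665 (wild type replicate 5) and 56373393 (wild type replicate 3). Wt1 itself did not separate the groups, with 40.0, 32.9 and 20.0 CPM (counts scaled to library size with edgeR's TMM factors) in wild type replicates 2, 3 and 5 and 17.7, 33.3 and 35.7 CPM in mutant replicates 1, 5 and 10. A count over the whole gene in a whole heart does not tell recombined from intact alleles, so it neither checks nor contradicts the labels. The 12 cardiomyocyte markers listed were detected in every library, with summed levels between 17000 and 21100 CPM. Wild type replicate 3 stood apart in the summed level of 8 foregut and liver markers. It had 742 CPM, against 1.12 to 28.2 CPM in the other hearts. Most of it came from the liver genes Afp (359 CPM) and Alb (303 CPM). The foregut genes Epcam, Foxa2 and Nkx2-1 were instead highest in wild type replicate 5 (6.07, 2.95 and 1.45 CPM) and mutant replicate 5 (5.04, 1.96 and 1.24 CPM). Cdh1 was highest in mutant replicate 5 (2.8 CPM), then in wild type replicate 3 (1.86 CPM). In the summed level of 7 erythroid markers wild type replicate 5 (32400 CPM) and mutant replicate 10 (35900 CPM) lay above the other hearts (10900 to 14000 CPM). Most of that sum came from Hbb-y and Hba-a1, and not every marker followed it. In wild type replicate 5 Slc4a1 (126 CPM) lay below wild type replicates 2 and 3 (150 and 164 CPM). Hba-a2 had 6.25 CPM there, against 48.2 CPM in wild type replicate 3. Wild type replicate 5 also stood apart in its trend with gene length: across 11782 genes, Spearman's correlation between a gene's deviation from its mean over the hearts and its length was -0.557, against values from -0.0619 to 0.464 in the others.

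Wild type replicate 5 also stood apart in these genes. It had the lowest CPM of the 6 hearts in 19 of the 31 genes and in 9 of the 11 plexins and neuropilins, where it had the lowest value in 31.1% of all 17473 genes tested. The median deviation of the 31 genes from their own means was -0.31 on the log2 scale in that heart, against 0.10 and 0.11 in wild type replicates 2 and 3. In the mutant hearts it was -0.03, 0.18 and 0.06. The part of gene length in these low values was not tested. For the fold changes of the 31 genes, the value without wild type replicate 5 is given where it differs by over 1.5 times. Their median SD within a group was 0.27 on the log2 CPM scale, against 0.22 over all genes tested.

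**Figure D1:**
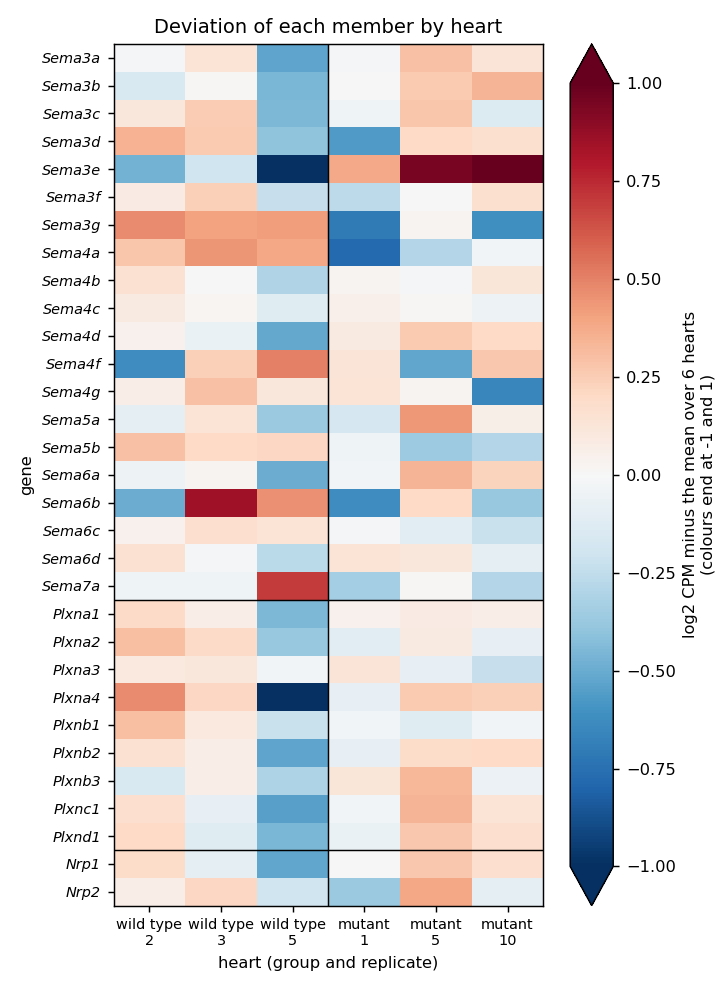
Each cell gives a gene's log2 CPM in one heart (columns, by group and replicate) minus its mean over the 6 hearts, with red above and blue below the mean and colours that end at -1 and 1; lines part semaphorins, plexins and neuropilins. Wild type replicate 5 is blue in most rows, and Sema3e is red in all 3 mutant hearts and blue in all 3 wild type hearts.

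The genes are spread over 17 chromosomes of GRCm38 (positions from GENCODE M21). On chromosome 5, 4 class 3 semaphorins lie in line: Sema3d (12383385 to 12588948), Sema3a (13125414 to 13602565), Sema3e (14025276 to 14256689) and Sema3c (17574281 to 17730268). Gaps of 536 kb and 423 kb part the first 3, and Sema3c follows 3.32 Mb after Sema3e. On chromosome 9, Sema3b and Sema3f lie 72.3 kb apart. Opposite-strand genes share exon bases with 4 of the 31 genes. The share is 10.71% in Plxna1, 7.27% in Sema4c, 2.68% in Plxnb1 and 0.78% in Plxna4. The source of the counts gives no strand setting, so these reads cannot be told apart.

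Since Wt1 encodes a DNA-binding protein, the 250 bases before the RefSeq start (GRCm38.p6) were searched on both strands for GCGNGGGNG, a pattern that covers the related binding sequences of WT1 and EGR zinc fingers. The table of promoters used here held 37 windows for 26 of the 31 genes. The pattern occurred in 8 genes (Plxna2, Plxnb1, Plxnb2, Plxnc1, Sema4g, Sema5a, Sema5b and Sema7a), 1 window each, or 8 of 37 windows. Of all 32851 windows of that length, 10.5% held it. The windows of the 31 genes were also richer in G and C, with a median of 64.0% against 52.4% over all windows. A match is a description of letters and no binding site. Shown are Sema3e, whose level differed most between the groups, its receptor Plxnd1, which had the highest level of the 31 genes, and Plxnb2, the plexin of the next highest level, as an example with a match. Capitals mark that match. The windows are chr5:14025026-14025275 on the plus strand, chr6:115995006-115995255 on the minus strand and chr15:89180789-89181038 on the minus strand, each printed 5′ to 3′ along its gene and ending at the base before the start.
Sema3e: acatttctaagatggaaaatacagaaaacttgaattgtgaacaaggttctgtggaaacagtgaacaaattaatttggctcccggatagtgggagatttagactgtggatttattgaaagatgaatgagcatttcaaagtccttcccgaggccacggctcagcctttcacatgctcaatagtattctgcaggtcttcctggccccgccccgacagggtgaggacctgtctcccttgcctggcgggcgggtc
Plxnd1: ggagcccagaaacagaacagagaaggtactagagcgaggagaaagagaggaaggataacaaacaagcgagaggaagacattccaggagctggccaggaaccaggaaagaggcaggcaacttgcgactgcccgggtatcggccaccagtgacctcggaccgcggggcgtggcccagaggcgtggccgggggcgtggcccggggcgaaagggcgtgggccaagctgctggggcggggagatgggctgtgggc
Plxnb2: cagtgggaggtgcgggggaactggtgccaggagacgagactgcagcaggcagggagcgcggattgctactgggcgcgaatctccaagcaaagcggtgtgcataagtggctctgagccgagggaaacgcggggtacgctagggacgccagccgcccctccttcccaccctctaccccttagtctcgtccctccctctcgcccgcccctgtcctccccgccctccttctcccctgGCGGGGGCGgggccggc
The Sema3e window holds 48.0% G and C with 7 CG pairs, and the Plxnd1 window 64.8% with 16.

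Levels are compared between genes only per length, first in the deposited FPKM (reads scaled by gene length in kilobases and by library size). Plexins held the highest levels. Plxnd1, the receptor of endothelium, had 189, 152 and 118 FPKM in wild type replicates 2, 3 and 5 and 158, 197 and 174 FPKM in mutant replicates 1, 5 and 10. Plxnb2, a widely expressed receptor of class 4 semaphorins, had 120, 114 and 73.7 FPKM in the wild type hearts and 103, 122 and 116 FPKM in the mutant hearts. For both genes the groups overlapped, with wild type replicate 5 lowest. Plxnb1, the receptor of Sema4d, followed at 42.7 ± 7.90 FPKM in wild type hearts (SD, n = 3). The co-receptor Nrp1 had 31.2 ± 7.71 FPKM, and Nrp2 5.47 ± 0.837 FPKM. At the other end Plxnb3 had 0.233 ± 0.0340 FPKM.

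**Figure D2:**
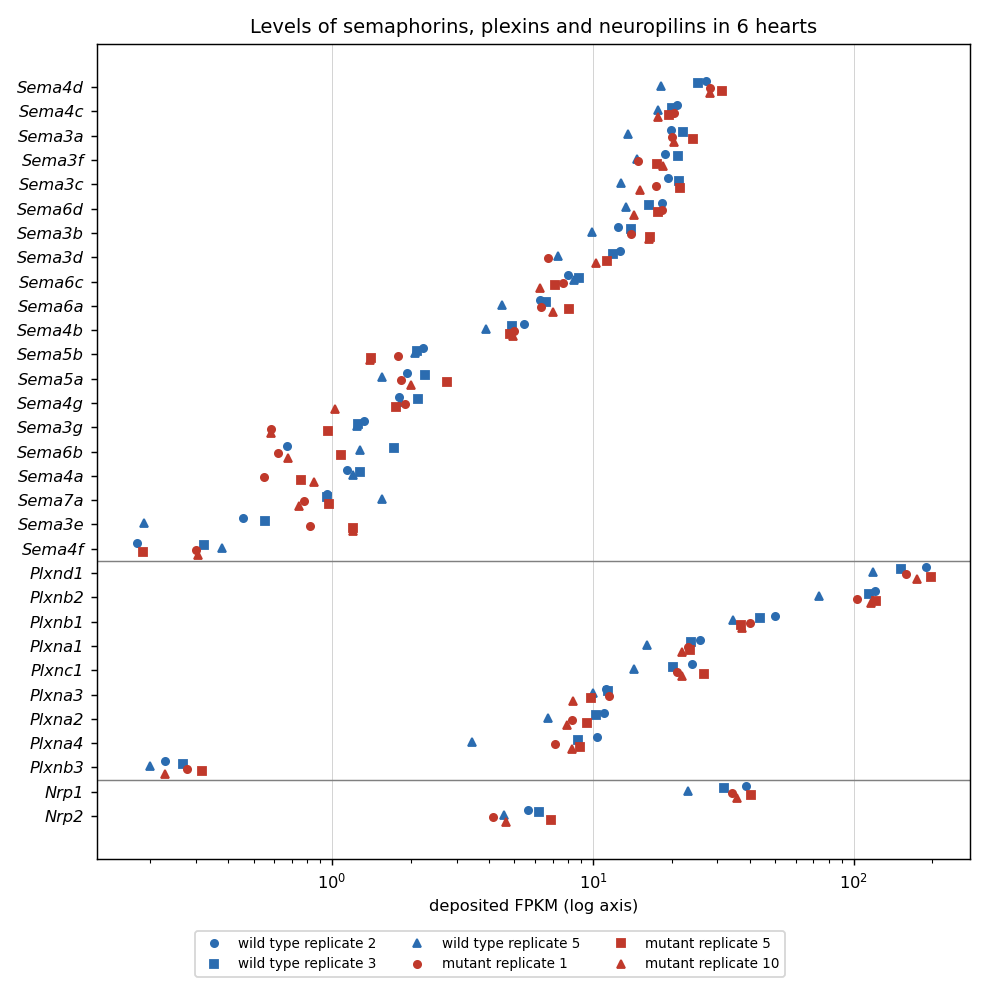
Deposited FPKM on a log axis for each of the 31 genes (rows, semaphorins above, then plexins, then neuropilins) in 3 wild type hearts (blue) and 3 mutant hearts (red), with 1 symbol per replicate. Plxnd1 and Plxnb2 lie highest, the semaphorins reach from 0.294 (Sema4f) to 23.5 (Sema4d) in wild type means, and for most genes the colours overlap.

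Among the ligands, Sema4d (a membrane semaphorin known from leukocytes, platelets and other cells) had the highest FPKM, at 23.5 ± 4.68 in wild type hearts. Sema4c (19.5 ± 1.61) and Sema3a (18.6 ± 4.46) came next, then Sema3f (18.3 ± 3.19), Sema3c (17.8 ± 4.46) and Sema6d (16.1 ± 2.51). Neighbours among these 6 differed by less than their SD, apart from Sema4d and Sema4c, whose difference was smaller than the SD of Sema4d but not that of Sema4c. Class 3 semaphorins made up 47.1% ± 2.92 of the summed semaphorin FPKM in wild type and 47.5% ± 2.74 in mutant hearts. Class 4 made up 30.7% ± 1.48 and 31.8% ± 1.45, and class 6 19% ± 1.16 and 18.1% ± 1.42 (SD, n = 3 per group). For these 3 classes the shares overlapped between the groups. Class 5 (2.46% ± 0.191 and 2.12% ± 0.0873) and class 7 (0.733% ± 0.361 and 0.473% ± 0.0348) had smaller shares in every mutant heart than in any wild type heart on the FPKM scale, while on the scale of the exon union, introduced next, both overlapped.

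The length inside the deposited FPKM changes this order. That length, recovered from counts and FPKM, was equal within 1 base to the mean length of a gene's annotated transcripts (GENCODE M21) for 76.08% of 26680 genes, short non-coding transcripts included. For Plxnd1 it was 1802 bases, where the exons of the gene cover 7301. Over the 31 genes the exon union was longer by 1.0 to 5.48 times (median 2.6, against 1.95 over all genes tested). Per kilobase of exon union, which was chosen after seeing the data, Plxnd1 had 37.8 ± 8.85 and Plxnb2 34.1 ± 8.42 scaled reads in wild type hearts, and they remained the highest. Nrp1 moved to the third place (18.8 ± 4.65). Among the semaphorins Sema4c then led (9.25 ± 0.762), ahead of Sema6d (6.85 ± 1.07) and Sema3c (6.52 ± 1.63), while Sema4d was the fifth (4.35 ± 0.868) and Sema3a the eighth (3.39 ± 0.814). A level of one gene against another on the FPKM scale therefore depends on the length used, while that length cancels when the same gene is compared between hearts. The trend with gene length in some hearts, given above, does not cancel in this way.

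**Figure D3:**
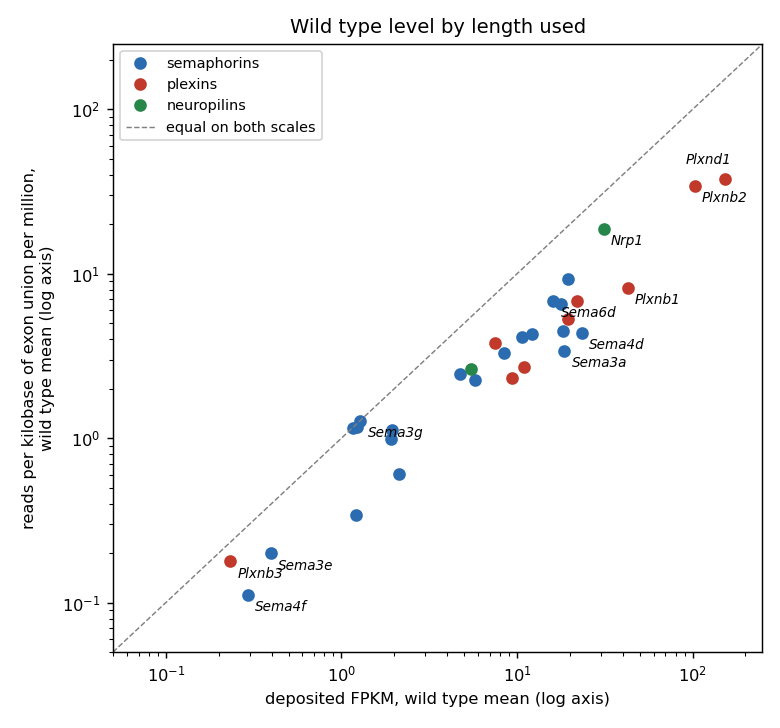
Wild type mean of each gene (n = 3) in deposited FPKM (x, log axis) against library-scaled reads per kilobase of exon union (y, log axis), with semaphorins in blue, plexins in red and neuropilins in green. Points lie on the dashed line of equality where both lengths agree (Sema3g) and farthest below it where annotated transcripts are short beside the exon union, as for Sema3a and Sema4d.

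In the comparison of mutant with wild type hearts, the quasi-likelihood test of edgeR, adjusted by Benjamini and Hochberg's method, found 0 of the 31 genes with an adjusted p under 0.05, and 0 of all 17473 genes tested (0%). DESeq2, the tool of the study, found 133 of 19282 genes (0.69%), and 1 of the 31, Sema3e. At an unadjusted p under 0.05 the quasi-likelihood test listed 6 of the 31 genes, where the share over all genes tested was 5.73% (3.14% higher and 2.59% lower in the mutant). All 6 were ligands, with Sema3e, Sema3b and Sema4d higher in the mutant and Sema3g, Sema4a and Sema5b lower. Of the 11 plexins and neuropilins, 0 had an unadjusted p under 0.05. Whether ligands and receptors differ in this was not tested.

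The 31 genes had a median log2 fold change of 0.05 (17 higher and 14 lower in the mutant), against a median of -0.001 over all genes tested. It was -0.07 without wild type replicate 5, with 11 higher and 20 lower. The 20 semaphorins were split evenly, 10 higher and 10 lower. In 6 of the 31 genes the mutant values all lay on one side of the wild type values (Sema3e and Sema4d higher, Sema3g, Sema4a, Sema5b and Sema6c lower), where 11.2% of all genes tested did so (6.61% higher and 4.59% lower). The number with an unadjusted p under 0.05 changed with the hearts used. It was 7 without wild type replicate 5 or 2 (12.2% and 5.72% of all genes in those fits), 5 without mutant replicate 1 (6.31%), 4 without wild type replicate 3 (5.05%), 3 without mutant replicate 10 (3.44%) and 2 without mutant replicate 5 (3.71%). With the Xist level, a measure of sex, as a covariate it was 3 (4.24%), namely Sema3e, Sema3g and Sema4a. Sema3e and Sema3g were the 2 genes listed in each of the 6 fits with 1 heart left out.

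**Figure D4:**
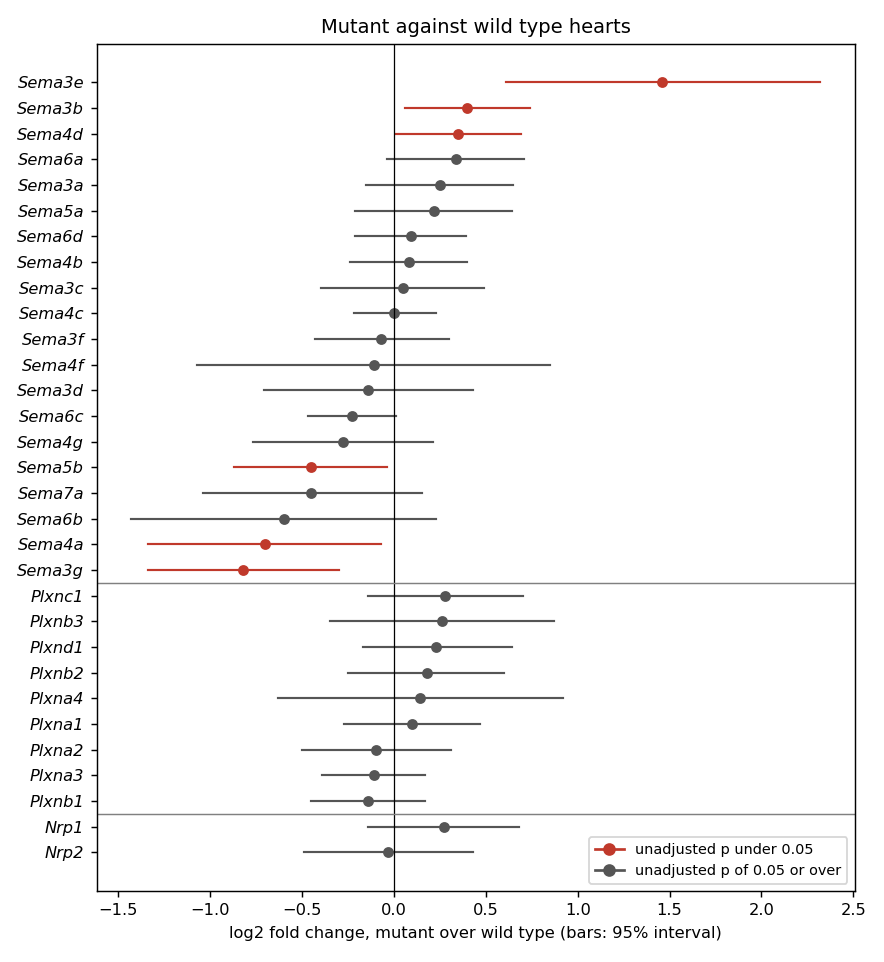
Log2 fold change of mutant over wild type (x) for each of the 31 genes (rows, semaphorins, plexins and neuropilins parted by lines), with bars for the 95% interval from edgeR's quasi-likelihood fit (n = 3 per group) and red for an unadjusted p under 0.05. The 6 red genes are all semaphorins, 3 on each side of 0, and every plexin and neuropilin interval spans 0.

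Sema3e (ENSMUSG00000063531), the secreted ligand that guides vessels through Plxnd1, showed the widest difference. It had 2.08, 2.5 and 0.886 CPM in wild type replicates 2, 3 and 5 (117, 144 and 39 counts) and 3.75, 5.55 and 5.88 CPM in mutant replicates 1, 5 and 10 (195, 291 and 296 counts). The groups did not overlap, and wild type replicate 5 was lowest. The mutant level was 2.76-fold the wild type level, a log2 fold change of 1.46 (standard error 0.37, 95% interval 0.61 to 2.32). The adjusted p was 0.494 from the quasi-likelihood fit of edgeR and 0.0113 from DESeq2, and over all settings it ran from 0.0113 to 1.0. An unadjusted p under 0.05 was kept in all 6 fits with 1 heart left out. Without wild type replicate 5 the log2 fold change was 1.14, and over the fits with 1 heart left out it lay between 1.14 and 1.76. With the gene length trend taken out of every library it was 1.43. The summed level of 12 epicardial markers was likewise lowest in wild type replicate 5 (275 CPM) and highest in mutant replicate 10 (669 CPM), but its groups overlapped (452 and 551 CPM in the other wild type hearts, 363 and 526 CPM in the other mutant hearts). Of the 12, 6 had an unadjusted p under 0.05 by the same edgeR fit, beside 5.73% of all genes tested. Higher in the mutant were 5 of these (Krt8, Upk1b, Gpm6a, Msln and Krt18, with log2 fold changes of 1.13, 0.96, 0.78, 0.61 and 0.56) and 1 was lower (Muc16, -1.74). Of the whole list 8 were higher and 4 lower, the latter Muc16, Aldh1a2 (-0.26), Wt1 (-0.1) and Tbx18 (-0.1). The groups did not overlap in 3 of the 12, beside 11.2% of all genes tested. None of the 12 was at 0 counts in any heart. The part of these cells in the result was not tested.

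The receptor of Sema3e showed no such difference. Plxnd1 (ENSMUSG00000030123, chromosome 6, 115954811 to 115995005) had 337, 269 and 213 CPM in wild type replicates 2, 3 and 5 and 279, 354 and 330 CPM in mutant replicates 1, 5 and 10. The groups overlapped, and the log2 fold change was 0.23 (standard error 0.18, 95% interval -0.17 to 0.64, adjusted p = 0.985 by quasi-likelihood in edgeR), or 0.09 without wild type replicate 5. The interval leaves room for a change of up to 0.64 upwards. Within each heart, the log2 ratio of Sema3e to Plxnd1 CPM was -7.34, -6.75 and -7.91 in the wild type hearts and -6.22, -6.00 and -5.81 in the mutant hearts. The ratio does not use the scaling between hearts, and its groups did not overlap (difference 1.32).

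Nor did the genes beside Sema3e on chromosome 5 differ as it did. Sema3a, best known as a repellent of axons, had 49.6, 55.2 and 34.6 CPM in the wild type hearts and 49.9, 61.1 and 54.8 CPM in the mutant hearts, a log2 fold change of 0.25 (95% interval -0.15 to 0.65). For Sema3d the value was -0.14 (95% interval -0.71 to 0.43) and for Sema3c 0.05 (95% interval -0.40 to 0.49). Without wild type replicate 5 the values were 0.08 for Sema3a, -0.34 for Sema3d and -0.13 for Sema3c. The interval of Sema3e overlaps that of Sema3a, and the differences between these genes were not tested.

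Sema3g (ENSMUSG00000021904, chromosome 14, 31217860 to 31230352), a secreted semaphorin of arterial endothelium that binds Nrp2, was lower in the mutant. It had 5.91, 5.62 and 5.68 CPM in wild type replicates 2, 3 and 5 and 2.6, 4.35 and 2.78 CPM in mutant replicates 1, 5 and 10. The wild type hearts lay close together, wild type replicate 5 among them, and the groups did not overlap. Its level in the wild type was 1.77-fold that in the mutant, a log2 fold change of -0.82 (standard error 0.23, 95% interval -1.34 to -0.30, adjusted p = 0.578 by quasi-likelihood in edgeR). DESeq2 gave an adjusted p of 0.0952, and the range over all settings was 0.0952 to 1.0. With each heart left out the value lay between -1.10 (without mutant replicate 5) and -0.68 (without mutant replicate 1).

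In a heart counted whole, fewer cells of a type and less RNA per cell cannot be told apart, so general endothelial genes are set beside Sema3g. Of 12 endothelial and endocardial markers (Pecam1, Cdh5, Tek and others), the mutant mean was above the wild type mean in 9 and below it in 3, and the median over the list was 0.22 (log2). Their summed level was 1400, 1170 and 1060 CPM in wild type replicates 2, 3 and 5 and 1270, 1530 and 1480 CPM in mutant replicates 1, 5 and 10, and 0 of the 12 were at 0 counts in any heart. The 3 on the lower side were Cldn5 (-0.55), Egfl7 (-0.28) and Robo4 (-0.20). The list is one of general endothelium, and the part of endothelial or arterial cells in the Sema3g value was not tested. The summed level of this list was lowest in wild type replicate 5, as were Plxnd1 and Nrp1. The part of these cells in those values was not tested either.

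Sema4a and Sema5b, both membrane semaphorins, were the other ligands on the lower side. Sema4a, known from immune cells, had 1.72, 1.93 and 1.86 CPM in the wild type hearts and 0.827, 1.16 and 1.39 CPM in the mutant hearts. Its counts were low (43 to 111), and the log2 fold change was -0.70 (95% interval -1.34 to -0.07, adjusted p = 0.827 by quasi-likelihood in edgeR). Sema5b, a guidance ligand with thrombospondin repeats, had 4.39, 4.12 and 4.16 CPM in the wild type and 3.50, 2.80 and 2.94 CPM in the mutant hearts. Its log2 fold change was -0.45 (95% interval -0.87 to -0.04, adjusted p = 0.833 by the same edgeR fit). The groups did not overlap for either gene. An unadjusted p under 0.05 was kept in 1 of the 6 fits with 1 heart left out for Sema4a and in 2 of 6 for Sema5b.

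**Figure D5:**
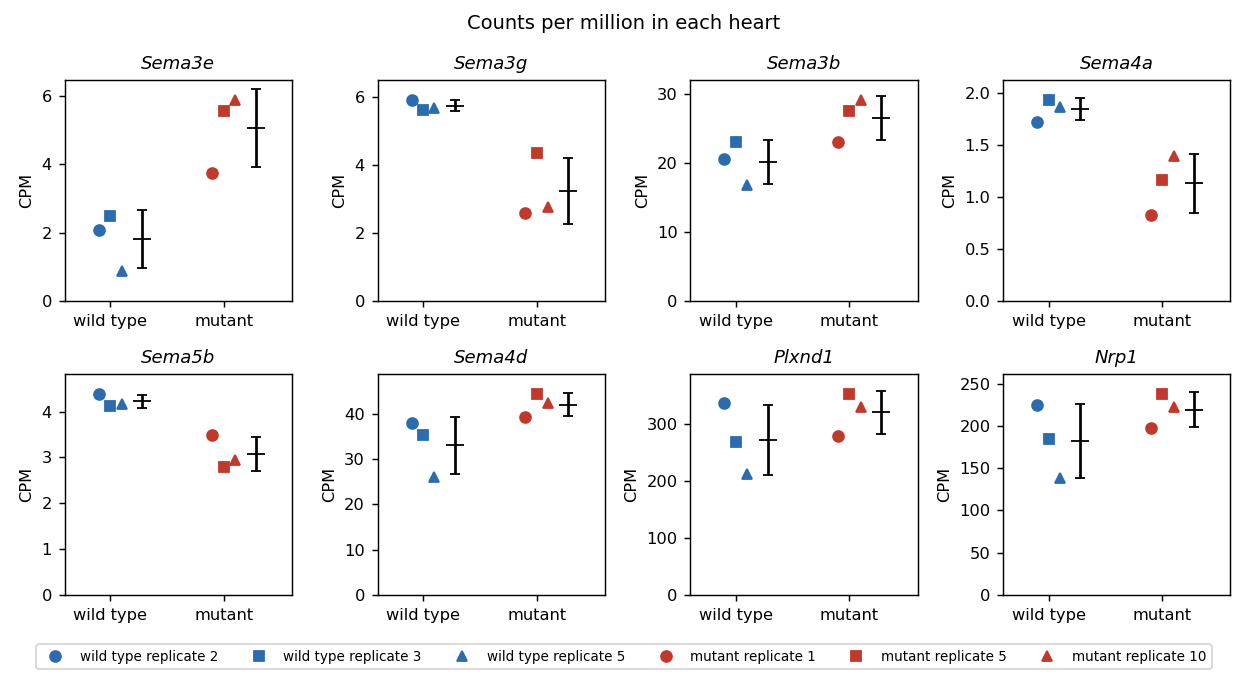
CPM (y, from 0) of the 6 semaphorins with an unadjusted p under 0.05 and of Plxnd1 and Nrp1 in 3 wild type hearts (blue) and 3 mutant hearts (red), with 1 symbol per replicate and black bars for mean ± SD. Sema3e and Sema3g part the groups in opposite directions, and wild type replicate 5 (blue triangle) is lowest in Sema3e, Sema3b, Sema4d, Plxnd1 and Nrp1.

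Sema3b and Sema4d were on the higher side by smaller amounts. For Sema3b 3 of the 6 fits with 1 heart left out kept an unadjusted p under 0.05, and for Sema4d 2 of 6 did. Sema3b, a secreted ligand that binds neuropilins, had 20.7, 23.1 and 16.8 CPM in wild type replicates 2, 3 and 5 and 23.1, 27.6 and 29.2 CPM in mutant replicates 1, 5 and 10. The groups met at 23.1 CPM, and the log2 fold change was 0.40 (95% interval 0.06 to 0.74, adjusted p = 0.805 by quasi-likelihood in edgeR), or 0.28 without wild type replicate 5. Sema3f, its neighbour on chromosome 9, had a log2 fold change of -0.07 (95% interval -0.43 to 0.30), or -0.19 without wild type replicate 5. Sema4d had 37.9, 35.2 and 26.0 CPM in the wild type hearts and 39.2, 44.4 and 42.4 CPM in the mutant hearts. Its groups lay apart by a small gap, and the log2 fold change of 0.35 (95% interval 0.01 to 0.69, adjusted p = 0.866 by the same edgeR fit) was 0.20 without wild type replicate 5.

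Macrophage and platelet markers, unlike the erythroid ones, parted the groups in the same direction as Sema4d and Sema3e. Of 11 macrophage markers, 10 had an unadjusted p under 0.05 by quasi-likelihood in edgeR and were higher in the mutant, beside 3.14% of all genes tested. At 0 counts in 1 heart (wild type replicate 5) was 1 of the 11, Vsig4. The summed level of the 11 was 93.6, 108 and 114 CPM in wild type replicates 2, 3 and 5 and 152, 150 and 165 CPM in the mutant hearts. Of 7 platelet markers, 5 were higher at that threshold, beside the same 3.14%. Their summed levels were 22.9 to 33.8 CPM in wild type and 38.4 to 55.7 CPM in mutant hearts. Of the 7, 0 were at 0 counts in any heart. Sema4a, the other semaphorin known from immune cells, had its lower values in the same hearts. The part of these cells in the 3 values was not tested.

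Of the class 6 semaphorins, which include ligands of A-type plexins, Sema6c and Sema6a came nearest to the threshold. Sema6c had 18.4, 20.2 and 19.8 CPM in the wild type and 17.7, 16.7 and 15.5 CPM in the mutant hearts, without overlap, a log2 fold change of -0.23 (95% interval -0.47 to 0.01). Sema6a had 21, 22.1 and 15.4 CPM in the wild type and 21.2, 27.4 and 25.2 CPM in the mutant hearts, with overlap and a log2 fold change of 0.34 (95% interval -0.04 to 0.71) that was 0.19 without wild type replicate 5. Sema6d, which acts in the ventricular wall, had 0.09 (95% interval -0.21 to 0.39), or -0.01 without wild type replicate 5. Sema6b varied widely among the hearts of a group, from 2.5 to 6.40 CPM in the wild type.

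The remaining ligands gave intervals that span 0. Sema4c was the most even of all, with 44.8, 42.6 and 38.8 CPM in the wild type and 43.7, 42.3 and 40.6 CPM in the mutant hearts. Its log2 fold change of 0.0044 has a 95% interval from -0.22 to 0.23, which is the tightest limit on a change in these genes, and it was -0.05 without wild type replicate 5. Sema4f, at 20 to 37 counts, gave the widest interval of the class 4 genes (-1.07 to 0.85), and a change within it was not detectable at this depth. Sema7a, the lipid-anchored ligand of Plxnc1, had 5.18 CPM in wild type replicate 5 against 2.52 to 3.20 CPM in the other 5 hearts. Its log2 fold change of -0.45 (95% interval -1.04 to 0.15) was -0.16 without that heart.

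For the receptors, the log2 fold changes lay between -0.14 (Plxnb1) and 0.28 (Plxnc1, 0.11 without wild type replicate 5), with standard errors of 0.12 to 0.34. That 0 of the 11 plexins and neuropilins had an unadjusted p under 0.05 depended on 2 hearts. Without wild type replicate 2, Plxnd1 (0.42), Plxnc1 (0.45) and Nrp1 (0.45) had one, all higher in the mutant, beside 5.72% of all genes in that fit. Without wild type replicate 5, Plxnb1 and Plxna2 had one (-0.27 and -0.28), both lower. The share over all genes in that fit was 12.2%. Plxnb2 had 304, 287 and 190 CPM in the wild type and 258, 310 and 314 CPM in the mutant hearts, a log2 fold change of 0.18 (95% interval -0.25 to 0.60) that was -0.01 without wild type replicate 5. Plxnb1 had 90.6, 79.0 and 63.4 CPM in the wild type and 72.0, 67.6 and 72.0 CPM in the mutant hearts, a log2 fold change of -0.14 (95% interval -0.45 to 0.17), or -0.27 without wild type replicate 5. Plxna4, a neuropilin partner in the nervous system, had the widest spread of the receptors, with 73.3, 61.4 and 24.8 CPM in the wild type and 50.0, 63.7 and 62.5 CPM in the mutant hearts. The neuronal and glial list did not share this low value, with 104 CPM in wild type replicate 5 against 95.9 to 121 CPM in the others. Plxnd1 and Plxnb2 together held 70.1%, 69.2% and 69.2% of the summed plexin FPKM in wild type replicates 2, 3 and 5 and 70.1%, 73.4% and 73.3% in mutant replicates 1, 5 and 10. The lowest mutant value lay just above the highest wild type value, both 70.1% as rounded. With the exon union as length the shares were 70.6% to 71.2% in wild type and 71.3% to 74.1% in mutant hearts, also without overlap.

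The values of both neuropilins overlapped between the groups. Nrp1, the partner of class 3 ligands and of VEGF on endothelium, had 225, 184 and 138 CPM in wild type replicates 2, 3 and 5 and 198, 238 and 222 CPM in mutant replicates 1, 5 and 10, a log2 fold change of 0.27 (95% interval -0.14 to 0.68, adjusted p = 0.968 by quasi-likelihood in edgeR) that was 0.10 without wild type replicate 5. Nrp2, the partner of Sema3f and Sema3g, had 31.4, 34.6 and 26.0 CPM and 23.1, 39.1 and 27.9 CPM, a log2 fold change of -0.03 (95% interval -0.49 to 0.43), or -0.14 without wild type replicate 5. The log2 ratio of Nrp1 to Nrp2 CPM in each heart was 2.55 ± 0.25 in wild type and 2.90 ± 0.26 in mutant hearts (SD, n = 3).

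Ligands were also set against their known receptors or co-receptors within each heart, over 9 such pairs and the pair of neuropilins. The pairs were chosen with the values of the genes known, and 3 hearts against 3 cannot give an exact two-sided permutation p under 0.1, so the ratios are a description. Beside Sema3e over Plxnd1 (1.32 higher in the mutant on the log2 scale, 1.03 without wild type replicate 5), the groups lay apart in Sema4d over Plxnb1 (0.49 higher), Sema6a over Plxna2 (0.42 higher), Sema3g over Nrp2 (-0.81) and Sema7a over Plxnc1 (-0.72). The last of these rested on wild type replicate 5, with -4.11, -3.87 and -2.66 in the wild type hearts and -4.21, -4.24 and -4.34 in the mutant hearts, and was -0.28 without it. Leaving that heart out of the ratios was chosen after seeing the data. Sema4d over Plxnb1 was -1.26, -1.17 and -1.29 in wild type replicates 2, 3 and 5 and -0.87, -0.61 and -0.76 in the mutant hearts. Sema3g over Nrp2 was -2.41, -2.62 and -2.20 and then -3.15, -3.17 and -3.33. In both of these pairs wild type replicate 5 lay near the other wild type hearts, although each gene of the pair Sema4d and Plxnb1 was lowest there. In the remaining pairs of a ligand and a receptor or co-receptor the groups overlapped. The differences there were -0.23 for Sema3c over Nrp1, -0.02 for Sema3a over Nrp1, -0.01 for Sema3f over Nrp2 and -0.03 for Sema6d over Plxna1.

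Of 63 further genes of the pathway (VEGF ligands and receptors, other co-receptors, and the mediators inside the cell), 62 were tested. With an adjusted p under 0.05 there were 0 by quasi-likelihood in edgeR. With an unadjusted p under 0.05 there were 4 of the 62 (3 higher, 1 lower), a share near the 5.73% over all genes. The groups did not overlap in 4 of the 63 on the higher side and in 6 on the lower side, beside 11.2% of all genes tested. The 4 genes below are therefore given as a description. Figf, which encodes the lymphatic growth factor VEGF-D, had 4.21, 6.73 and 8.59 CPM in wild type replicates 2, 3 and 5 and 11.7, 12.2 and 15.9 CPM in mutant replicates 1, 5 and 10. The groups did not overlap, and the log2 fold change was 1.03 with a standard error of 0.26 (adjusted p = 0.468 by quasi-likelihood in edgeR). Met, the HGF receptor that pairs with B-type plexins, averaged 8.21 ± 1.51 CPM over the wild type and 11.3 ± 1.48 CPM over the mutant hearts (log2 fold change 0.45). Ptprc, the leukocyte antigen CD45, had 2.43 ± 0.678 and 3.69 ± 0.50 CPM (0.60). Cdk5r1, the activator of the kinase Cdk5 that acts downstream of Sema3a, had 3.93 ± 0.682 and 2.63 ± 0.124 CPM (-0.58).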

How the data were processed

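RNA was measured in 6 whole hearts, and groups were taken from the sample titles. The authors trimmed the reads with Trim Galore, aligned them with STAR to mm10 and, by the paper's methods, counted uniquely mapped reads with featureCounts and GENCODE M19, while the deposited tool list names HTSeq. The deposited counts are not normalized. The authors also deposited FPKM, whose making is not described, and the mean FPKM per group, which was not used for results here. Both count tables are equal, as are both FPKM tables. Columns not mapped to a heart numbered 0.

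Counts were compared with edgeR 4.0.16 in R 4.3.3 (quasi-likelihood test, TMM, filterByExpr at its default minimum counts of 10 per library and 15 in all; the model held the group alone, tests were two-sided, and calls needed a Benjamini-Hochberg adjusted p under 0.05). CPM uses TMM-scaled library sizes. The standard error is the log2 fold change over the square root of F. DESeq2 1.42.0, limma 3.58.1 (voom, and trend fits on log2 of FPKM plus 1 or 0.1), other size factors and filters, a fit with gene length trends taken out per library (local regression, span 0.5), the Xist level as a covariate, and each heart left out were the alternatives. The fits were tested on simulated data. Full values are given for genes with an unadjusted p under 0.05 or, up to 8, the next smallest p, for the 3 ligands and 3 receptors with the highest FPKM, and for both neuropilins; any further gene was picked with its values in view. Members, lists and pairs were chosen with earlier results of these data known. The embryos were separate animals, and p-values rest on 3 hearts per group.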

Additional observations from a re-analysis of the deposited data

How the results depend on the processing

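No paired analysis was possible because no litter or other pairing of the embryos is given. The replicate numbers come from the sample titles, and the number 5 in both groups is not labelled as a pair. The number of all genes with an adjusted p under 0.05, 0 with edgeR's quasi-likelihood test, was 133 with DESeq2, 34 without a filter on low counts and 6 with the trend with gene length removed, and from 0 to 44 in the fits that leave out 1 heart, 44 without wild type replicate 5. Of the 31 genes, 1 (Sema3e) had an adjusted p under 0.05 with DESeq2, and 0 with each heart left out. The number of the 31 with an unadjusted p under 0.05 fell from 6 to 3 with the Xist level as a covariate and ran from 2 to 7 as each heart was left out in turn. Their median log2 fold change then ran from -0.07 to 0.10. Of the pathway genes, 4 had an unadjusted p under 0.05, 1 with the Xist covariate, and 1 to 7 with each heart left out. The cause was not tested.

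Of 240 values of the 15 genes described in full under 16 alternatives each, 225 kept their direction and stayed above the adjusted p of 0.05. In the main fit 0 of the 15 were under it, so staying above it says little about how stable the values are. Sema3e with DESeq2 was the 1 value that passed it. In sign 14 values turned, in genes whose main value was smaller than its standard error (Sema4c, Nrp2 and Plxnb2). Sema4c, at 0.0044, was -0.00037 with RLE size factors, -0.01 with a filter of 1 CPM in 3 hearts and with the Xist covariate, and -0.02 with upper quartile factors, with the length trend removed and in both trend fits on FPKM. As hearts were left out it ran from -0.05 to 0.05. Plxnb2 ran from -0.01 (without wild type replicate 5) to 0.30, and Nrp2 from -0.28 to 0.13 (0.02 without mutant replicate 10, 0.07 without wild type replicate 3). The groups did not overlap in 6 genes with RLE factors, the length trend removed or FPKM, and in 7 with upper quartile factors. At about 20 to 40 counts (Sema4f) depth limits what can be seen. The intervals are for the difference between the groups, estimated from 3 hearts each with a variance that borrows from all genes.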
